A study of Mus musculus with 4 samples.

Results

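The genes described here are 10 components and targets of the Nodal and bone morphogenetic protein (BMP) signaling pathways, namely the ligands *Nodal* and *Bmp4*, the co-receptor *Tdgf1*, the secreted antagonists *Lefty1* and *Lefty2*, the intracellular regulators *Skil* and *Smad7*, and the BMP target genes *Id1*, *Id2* and *Id3*. They were taken by gene symbol from the 50559 genes of the deposited count table as known parts of these pathways. The choice was made with earlier results of these data known, so shares of members set beside those of all genes are descriptions only. RNA-seq was performed on E14 mouse embryonic stem cells (ESCs) to find transcripts that differ after *Ythdf2* knockdown, and to see if they return toward control levels with YTHDF2 that can or cannot bind N6-methyladenosine (m6A). YTHDF2 is a cytoplasmic protein that binds m6A-modified RNA and recruits the machinery that shortens poly(A) tails. All 4 libraries were of ESCs grown on gelatin in medium with KnockOut Serum Replacement and leukemia inhibitory factor. According to the methods of the study, the ESCs carried a tdTomato transgene driven by the *MERVL* promoter, the hairpins were delivered by lentivirus and puromycin selected the infected cells, so each line was a selected population. The library titled shscr_EV (shScram+EV, the scrambled library below) had a scrambled hairpin and the empty vector. The others had a hairpin to *Ythdf2*, combined with the empty vector in the library titled shYthdf2_EV (shYthdf2+EV, the knockdown library), with wild-type YTHDF2 in shYthdf2_WT (shYthdf2+DF2WT, the wild-type library) or with the m6A-binding mutant in shYtdhf2_Mut (shYthdf2+DF2Mut, the mutant library). Which hairpin against *Ythdf2* was used is not given in the sources used here, and there was 1 library per group, so each difference compares 1 library with 1 other, and p-values are not given.

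Nodal is a secreted ligand of the transforming growth factor-β family. With its co-receptor TDGF1 (also called Cripto) it binds activin receptors, which phosphorylate SMAD2 and SMAD3, and these enter the nucleus with SMAD4 and act with DNA-binding partners such as FOXH1. *Nodal* itself, *Lefty1*, *Lefty2* and *Skil* are among the genes that this signal induces, and the LEFTY proteins and SKIL restrain it, so that the pathway carries its own negative feedback. BMP4 signals through SMAD1, SMAD5 and SMAD9, and in mouse ESCs the *Id* genes are its best known targets. ID proteins lack a DNA-binding domain and hold E-proteins off DNA, which in ESCs restrains neural differentiation.

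The libraries held between 31533129 and 35742335 reads, and 3 reads, taken here as the floor, corresponded to between 0.0835 and 0.0949 CPM (reads scaled to a common library size). The scrambled library held 2806 reads of *Ythdf2* and the knockdown library 662, which was 20.8% of the scrambled level after scaling. The wild-type library held 7661 and the mutant library 6925, or 2.62-fold and 2.45-fold the scrambled level. The pluripotency genes *Pou5f1*, *Sox2* and *Nanog* were high in every library. The summed level of 8 pluripotency markers, among them the member *Tdgf1*, lay between 5410 and 5657 CPM. The other marker lists were low, with summed levels of 8.16 to 10.8 CPM for neuroectoderm, 10.9 to 16.5 for fibroblasts, 12.5 to 23.9 for primitive endoderm, 21.8 to 31.1 for mesendoderm and 25.7 to 34.1 for trophoblast. The mesendoderm gene *T* had no read in any library. Markers of primed epiblast summed to between 97.7 and 104 CPM, and those of 2C-like cells, a rare ESC state with transcripts of the 2-cell embryo, to 148 CPM in the scrambled, 396 in the knockdown, 187 in the wild-type and 399.6 in the mutant library. In bulk RNA, fewer cells that express a gene and less RNA per cell cannot be told apart.

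The start regions of 3 of these genes are shown because *Nodal* and *Id3* were higher and *Tdgf1* lower in the knockdown library, and because the pathway's transcription factors recognize short motifs in such regions. RefSeq promoters, covering 250 bases before to 50 bases after the annotated start, were found for *Nodal*, *Tdgf1*, *Bmp4*, *Id2* and *Id3*, and not for *Lefty1*, *Lefty2*, *Id1*, *Smad7* and *Skil*. The promoters are on build GRCm38.p6 at chr10:61417722-61418021 on the plus strand for *Nodal*, chr4:136143572-136143871 on the plus strand for *Id3* and chr9:110946109-110946408 on the minus strand for *Tdgf1*. They are printed 5′ to 3′, and capitals mark matches to GTCT or its reverse complement AGAC (the core that SMAD proteins bind) and to AATNNACA, a FOXH1 motif, on either strand.
*Nodal*: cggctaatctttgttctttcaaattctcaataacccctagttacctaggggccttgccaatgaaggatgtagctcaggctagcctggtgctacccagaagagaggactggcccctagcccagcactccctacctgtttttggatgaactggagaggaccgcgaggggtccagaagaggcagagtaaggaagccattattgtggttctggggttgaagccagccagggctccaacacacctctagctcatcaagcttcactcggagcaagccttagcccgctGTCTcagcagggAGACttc
*Id3*: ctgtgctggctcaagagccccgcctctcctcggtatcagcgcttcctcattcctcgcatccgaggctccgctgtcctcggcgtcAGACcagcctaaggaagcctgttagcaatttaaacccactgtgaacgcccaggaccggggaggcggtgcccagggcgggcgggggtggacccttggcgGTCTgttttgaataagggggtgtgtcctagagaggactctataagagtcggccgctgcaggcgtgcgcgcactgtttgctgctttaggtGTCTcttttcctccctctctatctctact
*Tdgf1*: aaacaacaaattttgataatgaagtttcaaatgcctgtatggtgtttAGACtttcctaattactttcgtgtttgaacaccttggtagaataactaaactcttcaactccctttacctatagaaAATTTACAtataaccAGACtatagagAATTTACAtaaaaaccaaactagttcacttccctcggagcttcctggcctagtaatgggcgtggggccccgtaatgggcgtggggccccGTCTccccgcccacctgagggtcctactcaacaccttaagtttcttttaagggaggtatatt
GTCT occurred 2 times in the *Nodal* promoter and 3 times each in those of *Id3* and *Tdgf1*, and 88.0% of 32851 RefSeq promoters of the same length hold it at least once. AATNNACA occurred 2 times in the *Tdgf1* promoter and in no other of the 5, against 12.2% of all promoters. The palindrome GGCGCC, which BMP-activated SMAD proteins recognize, occurred 1 time in the *Id2* promoter, against 11.9% of all promoters. CAGACA, a longer SMAD motif that contains AGAC, was in none of the 5, against 21.0% of all promoters. A match is a description of these letters and not of a bound site.

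The reader protein under study binds m6A, which is placed mostly in a GGAC context and most often near stop codons. GGACT was present in the longest GENCODE vM21 transcript of all 10 genes, with 2 to 5 copies each, and in 88.5% of 16726 transcripts of genes tested. The copy nearest to the stop codon is shown for the 7 genes whose counting interval on knockdown, given below, did not include 0. Capitals mark GGACT, positions are on GRCm38.p6, and the windows are 21 bases of the transcript.
*Nodal*: ttccaggtGGACTtcaacctg
*Lefty1*: gacctcaaGGACTatggagct
*Lefty2*: catgtcagGGACTgcccacag
*Id3*: ggaccctgGGACTctgggacc
*Skil*: ccctccaaGGACTaagagctg
*Tdgf1*: agcatccgGGACTccgtgtca
*Id1*: gaggccggGGACTgcctgtcc
The *Nodal* window lies in the coding sequence in exon 2 of 3, at chr10:61423560-61423580 on the plus strand. That of *Lefty1* lies in the coding sequence and spans the junction of exons 3 and 4, so it runs from 180937238 to 180937615 on chromosome 1, plus strand. The *Lefty2* window is in the 3′ UTR in exon 4 of 4, at chr1:180898121-180898141 on the plus strand, and that of *Id3* is in the 3′ UTR in exon 3 of 3, at chr4:136144909-136144929 on the plus strand. The other windows lie in coding sequence, for *Skil* in exon 7 of 7 close to the stop codon at chr3:31118599-31118619 on the plus strand, for *Tdgf1* in exon 6 of 6 at chr9:110940771-110940791 on the minus strand, and for *Id1* in the single exon of the transcript used, at chr2:152736675-152736695 on the plus strand. Whether any of these adenosines was methylated was not measured in these libraries. By the density of GGAC per kilobase of transcript, *Id3* stood at the 98.5th percentile of transcripts tested with 9.39 copies per kilobase. *Id1*, *Id2*, *Lefty1* and *Nodal* stood between the 92.8th and 95.2nd percentiles, and *Bmp4*, *Tdgf1*, *Lefty2* and *Smad7* between the 71.3rd and 86.3rd. *Skil*, with 2.38 copies per kilobase, stood at the 15.6th percentile. Whether GGAC density goes with the differences between libraries was not tested.

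All 10 genes were detected in every library, and their levels spanned a wide range. Levels are compared between genes per length, as fragments per kilobase of exon at equal sequencing depth (FPKM, CPM divided by the deposited exon length), with 95% intervals that cover counting error only. *Tdgf1*, with a mean of 577 FPKM over the 4 libraries, was by far the highest, and *Nodal*, with a mean of 46.3, was next. *Id1* followed with a mean of 26.9 FPKM, and its range over the libraries of 18.8 to 32.7 overlapped the range of 10.8 to 23.8 of *Lefty2*. *Lefty2*, *Skil* and *Id3* had means of 18.9, 16.9 and 16.2 FPKM, and overlapping ranges. *Lefty2* was above *Id3* in each library, though narrowly in the knockdown library. *Skil* was above both in the scrambled library and below both in the knockdown library. *Bmp4* had a mean of 12.8 FPKM and was above *Smad7*, with a mean of 9.33, in each library. *Lefty1*, with a mean of 11.1 FPKM, ranged from below *Smad7* to above *Bmp4*. *Id2*, at a mean of 1.65 FPKM, was the lowest in each library.

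**Figure D1:**
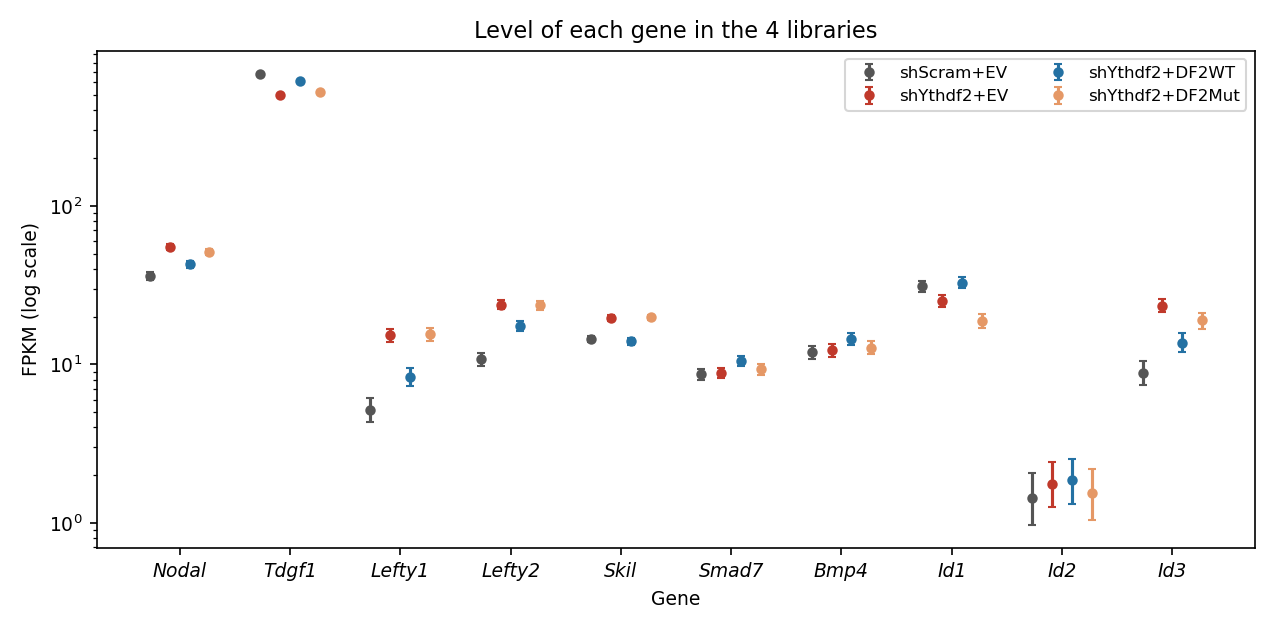
Level of each gene in FPKM (vertical axis, log scale) in the 4 libraries (points, 1 per library), with bars for the 95% Poisson interval on read pairs. *Tdgf1* lies between 498 and 675 FPKM and *Id2* between 1.44 and 1.86, while *Lefty1* and *Id3* span the widest ranges of the 10 genes.

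Gene positions from here on are those of the deposited table, on mm39. Among the ligands, *Nodal* (chr10:61253751-61261117, plus strand) had 2394 reads in the scrambled library, 4163 in the knockdown, 2951 in the wild-type and 3406 in the mutant library. Its levels were 36.2, 55.3, 42.8 and 51.1 FPKM in the same order, so the scrambled library was lowest, the knockdown library highest and the wild-type library between them. *Bmp4* (chr14:46620982-46628126, minus strand) had 774, 907, 979 and 834 reads, or 11.9, 12.3, 14.4 and 12.7 FPKM, and only the intervals of the scrambled and wild-type libraries did not overlap. The co-receptor *Tdgf1* (chr9:110768676-110775226, minus strand) had 44505, 37306, 41832 and 34743 reads, or 675, 498, 610 and 524 FPKM. Here the order was turned around, with the scrambled library highest and the wild-type library above the knockdown and mutant libraries.

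Both LEFTY antagonists separated the libraries clearly. *Lefty1* (chr1:180762587-180765966, plus strand) was covered by 265 reads in the scrambled library, 888 in the knockdown, 446 in the wild-type and 797 in the mutant library, or 5.17, 15.2, 8.36 and 15.5 FPKM. *Lefty2*, its neighbor on the same chromosome (chr1:180720673-180726672, plus strand), had 842, 2119, 1431 and 1853 reads, or 10.8, 23.8, 17.6 and 23.5 FPKM. For both genes the knockdown and mutant libraries were nearly level, and the counting intervals of the other libraries did not overlap with theirs or with each other. *Skil*, which encodes a SMAD co-repressor (chr3:31149122-31177072, plus strand), had 3266, 5027, 3282 and 4494 reads, or 14.5, 19.6, 13.9 and 19.8 FPKM. It fell into a low pair, the scrambled and wild-type libraries, and a high pair, the knockdown and mutant libraries. *Smad7*, which encodes an inhibitory SMAD acting on both arms (chr18:75500436-75529006, plus strand), had 1215, 1413, 1537 and 1316 reads, or 8.66, 8.85, 10.5 and 9.31 FPKM. It was highest in the wild-type library, and its relative levels followed those of *Bmp4* closely, with a root mean square difference of 0.00659 on the log2 scale over the 4 libraries.

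The *Id* genes each had a profile of their own. *Id1* (chr2:152578171-152579330, plus strand) had 1137 reads in the scrambled library, 1051 in the knockdown, 1248 in the wild-type and 692 in the mutant library, or 31, 25.2, 32.7 and 18.8 FPKM. The mutant library stood apart as the lowest. *Id3* (chr4:135871133-135872703, plus strand) had 266, 805, 430 and 573 reads, or 8.83, 23.5, 13.7 and 18.9 FPKM, and its order of libraries was that of *Nodal*. *Id2* (chr12:25143798-25146091, minus strand) had 58, 81, 78 and 62 reads, or 1.44, 1.77, 1.86 and 1.53 FPKM, with intervals that overlapped in all libraries. Of the 45 pairs of members, *Id1* and *Lefty1* had the most unlike profiles, with a root mean square difference of 0.93 on the log2 scale.

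The first comparison, shYthdf2+EV against shScram+EV, asked which transcripts differ on knockdown. *Lefty1*, *Lefty2* and *Id3* exceeded a 2-fold difference upward in the knockdown library, *Nodal* and *Skil* were higher by less, and *Tdgf1* and *Id1* were lower. *Bmp4*, *Smad7* and *Id2* had counting intervals that included no difference. Thus 3 of 10 members were at least 2-fold higher, against 1320 of 18586 genes tested (7.1%), and none was at least 2-fold lower, against 5.7% of genes tested. At 1.5-fold, 4 members were higher, with *Nodal* added (13.8% of genes tested), and none was lower (12.9%). The median log2 ratio was 0.36 over the members and −0.00 over all genes tested.

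*Lefty1* was 2.94-fold higher on knockdown, a log2 ratio of 1.56 with a 95% counting interval of 1.28 to 1.85. *Lefty2* was 2.21-fold higher (log2 ratio 1.15, 0.98 to 1.31), and *Id3* was 2.66-fold higher (1.41, 1.13 to 1.71). The interval of *Lefty1* overlapped those of *Id3* and, narrowly, of *Lefty2*. The ligand *Nodal* was 1.53-fold higher (log2 ratio 0.61, 0.51 to 0.72) and *Skil* 1.35-fold higher (0.44, 0.35 to 0.53). *Tdgf1* was at 73.7% of the scrambled level (−0.44, −0.47 to −0.41) and *Id1* at 81.3% (−0.30, −0.47 to −0.13). The ligand and both of its antagonists were thus higher while the co-receptor that the ligand needs was lower in the same library. The log2 ratios of *Bmp4* (0.04, −0.16 to 0.24) and *Smad7* (0.03, −0.13 to 0.19) were close to 0. *Id2* had a log2 ratio of 0.29, but so few reads that the interval ran from −0.43 to 1.04.

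The summed 2C-like markers, like *Lefty1*, *Lefty2* and *Id3*, were higher in the knockdown and mutant libraries than in the others, and 5 of the 6 were at least 2-fold higher on knockdown. The primitive endoderm markers, which summed to 16.2 CPM in the scrambled and 22.7 in the knockdown library, included 2 of 6 at least 2-fold higher on knockdown, and 3 of 6 were at least 2-fold lower in the wild-type than in the knockdown library. Their part in the members' differences was not tested. *Id2* lies on chromosome 12, whose genes had a median log2 ratio of −0.29 on knockdown, and with that median subtracted *Id2* stood at 0.58.

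The second comparison, shYthdf2+DF2WT against shYthdf2+EV, asked whether wild-type YTHDF2 moves these transcripts back. *Lefty1*, *Lefty2*, *Id3*, *Skil* and *Nodal* were lower in the wild-type than in the knockdown library, and *Id1*, *Tdgf1*, *Smad7* and *Bmp4* were higher. This comparison shares the knockdown library with the first, so the counting error of that library enters both with opposite signs. No member was 2-fold higher (5.15% of genes tested) or 2-fold lower (5.58%). At 1.5-fold, none was higher (12.2%) and 2 were lower, *Lefty1* and *Id3* (11.1%). The median log2 ratio was −0.15 over the members and 0.00 over all genes tested.

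*Lefty1* had a log2 ratio of −0.87 (−1.11 to −0.63), which put it at 54.9% of its level in the knockdown library. *Id3* was at 58.4% (−0.78, −1.02 to −0.54). *Skil* was at 71.3% (−0.49, −0.58 to −0.40), *Lefty2* at 73.8% (−0.44, −0.58 to −0.30) and *Nodal* at 77.4% (−0.37, −0.47 to −0.27). In the other direction, *Id1* was 1.30-fold higher (log2 ratio 0.37, 0.21 to 0.55) and *Tdgf1* 1.22-fold higher (0.29, 0.26 to 0.32). *Smad7* (0.25, 0.10 to 0.40) and *Bmp4* (0.24, 0.05 to 0.42), which had not differed on knockdown, were also slightly higher with the wild-type construct. *Id2* had a log2 ratio of 0.07 (−0.60 to 0.74). The median of genes in the same bins of expression, exon length and GC content was also subtracted. *Skil* then stood at −0.28, *Nodal* at −0.50 and *Tdgf1* at 0.33, outside their counting intervals, and the other members stayed within theirs.

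Set against the scrambled library, the wild-type construct left the members at different distances from the scrambled level. *Skil* was at 96.5% of it (log2 ratio −0.05, −0.15 to 0.05) and *Id1* at 105.4% (0.08, −0.09 to 0.24), and both intervals included no difference. *Nodal* was 1.18-fold above it (0.24, 0.13 to 0.35), and *Tdgf1* was at 90.2% of it (−0.15, −0.18 to −0.12). *Bmp4* (0.28, 0.08 to 0.48) and *Smad7* (0.28, 0.12 to 0.44), which had not differed on knockdown, were also above it. *Id2* had a log2 ratio of 0.37 with an interval of −0.36 to 1.11. The antagonists and *Id3* were farther away, with *Lefty2* 1.63-fold (0.71, 0.53 to 0.88), *Lefty1* 1.61-fold (0.69, 0.38 to 1.01) and *Id3* 1.55-fold (0.63, 0.32 to 0.96) above the scrambled library.

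The third comparison, shYthdf2+DF2Mut against shYthdf2+EV, asked the same of YTHDF2 that cannot bind m6A. Most members stood close to their level in the knockdown library. None was 2-fold higher (2.65% of genes tested) or lower (3.38%), and none was 1.5-fold higher (6.5%) or lower (8.78%). The median log2 ratio was −0.00 over the members and 0.01 over all genes tested. *Lefty1* (log2 ratio 0.02, −0.18 to 0.22), *Lefty2* (−0.02, −0.15 to 0.11) and *Skil* (0.01, −0.07 to 0.10) had intervals that included 0, as did *Bmp4*, *Smad7* and *Id2*. For *Lefty1*, *Lefty2* and *Skil* these intervals lay apart from those with the wild-type construct. *Nodal* was slightly lower (−0.11, −0.21 to −0.02) and *Tdgf1* slightly higher (0.07, 0.04 to 0.10). As scaled, the exceptions were in the *Id* family, where *Id3* was at 80.5% of its knockdown level (−0.31, −0.54 to −0.09) and *Id1* at 74.4% (−0.43, −0.63 to −0.23). *Id1* was thus higher with the wild-type construct and lower with the mutant, relative to the same library. These exceptions depended on the processing. With the median of genes in the same bins of expression, exon length and GC content subtracted, *Id3* stood at −0.10, *Id1* at −0.18 and *Lefty1* at 0.24. *Lefty1* was then the member farthest from no difference. Against the scrambled library, *Id1* with the mutant construct was at 60.5% (−0.73, −0.92 to −0.53).

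**Figure D2:**
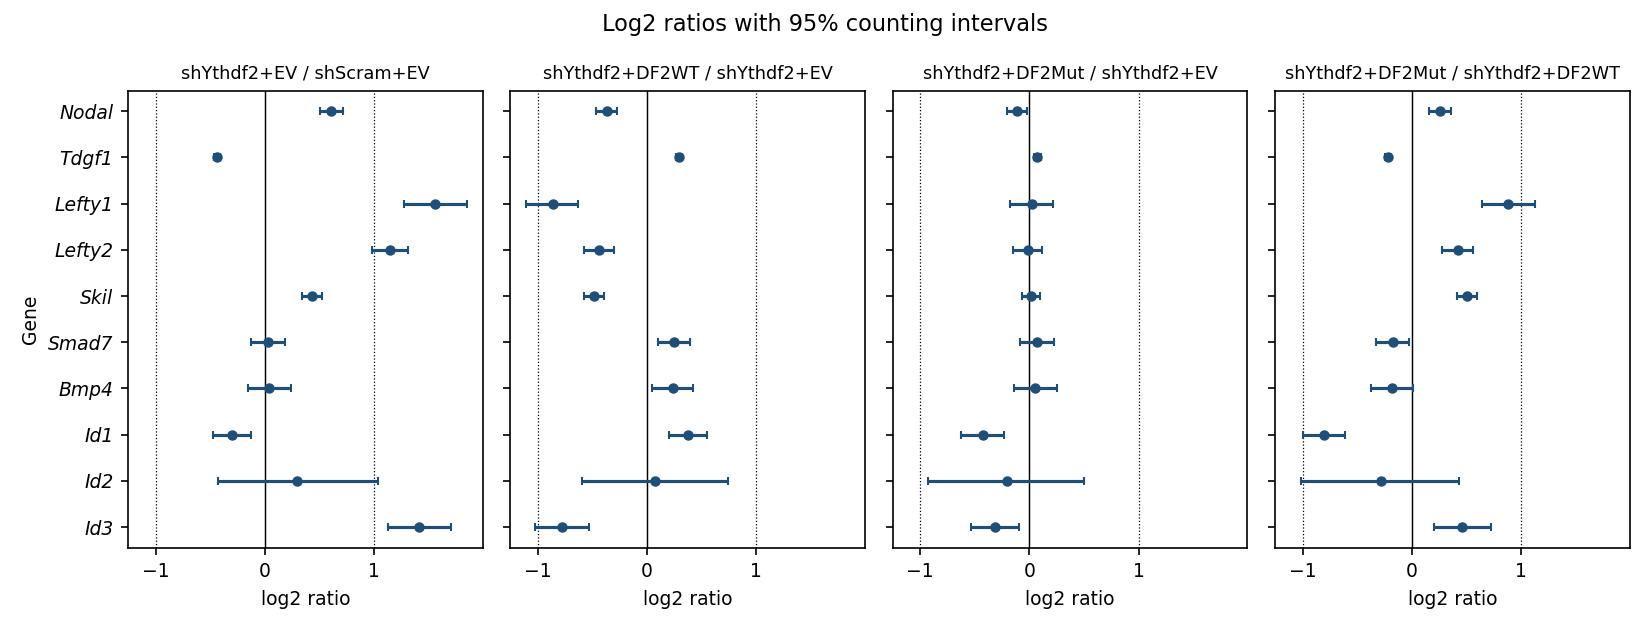
Log2 ratio of each gene (horizontal axis) in the 4 comparisons (panels), with bars for the 95% counting interval and dotted lines at a 2-fold difference. *Lefty1*, *Lefty2* and *Id3* lie beyond the 2-fold line only on knockdown, and *Id1* is the gene farthest below 0 in both panels with the mutant construct.

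The last comparison set the constructs against each other and asked whether the m6A-binding site made a difference. In shYthdf2+DF2Mut against shYthdf2+DF2WT, *Lefty1* was 1.85-fold higher (log2 ratio 0.89, 0.65 to 1.13), *Skil* 1.42-fold higher (0.50, 0.41 to 0.60), *Id3* 1.38-fold higher (0.46, 0.20 to 0.73), *Lefty2* 1.34-fold higher (0.42, 0.28 to 0.57) and *Nodal* 1.19-fold higher (0.26, 0.15 to 0.36). *Id1* was at 57.4% of its level with the wild-type construct (−0.80, −1.0 to −0.61), *Tdgf1* at 85.9% (−0.22, −0.25 to −0.19) and *Smad7* at 88.6% (−0.17, −0.33 to −0.02). *Bmp4* (−0.18, −0.37 to 0.01) and *Id2* (−0.28, −1.01 to 0.44) had intervals that included 0. No member was 2-fold higher (5.4% of genes tested) or 2-fold lower (6.21%). At 1.5-fold, 1 was higher, *Lefty1* (12.2%), and 1 was lower, *Id1* (14.9%). The median log2 ratio was 0.04 over the members and −0.01 over all genes tested.

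Over 16726 genes tested, the log2 ratio had a Spearman correlation of −0.394 with GC content in the last comparison, against −0.0635 on knockdown. Relative to the knockdown library, the correlation was 0.337 with the wild-type and −0.161 with the mutant construct. Each correlation is across genes that share the same pair of libraries. In the last comparison, the median of genes in the same bins of expression, exon length and GC content was then subtracted. *Lefty1* stood at 1.30, *Id3* at 0.88 and *Nodal* at 0.48, all higher than before. *Id1* stood at −0.48 and *Skil* at 0.20, both closer to 0, and *Bmp4* turned from −0.18 to 0.05. Of the 5 genes that were higher on knockdown, all had a positive value before and after this subtraction. Of the 2C-like markers, 4 of 6 were at least 2-fold higher in the mutant than in the wild-type library. Of the primitive endoderm markers, 3 of 6 were at least 2-fold higher and all 6 were higher, and they summed to 12.5 CPM in the wild-type and 23.9 in the mutant library. The part of GC content and of these markers in the members' differences was not tested.

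**Figure D3:**
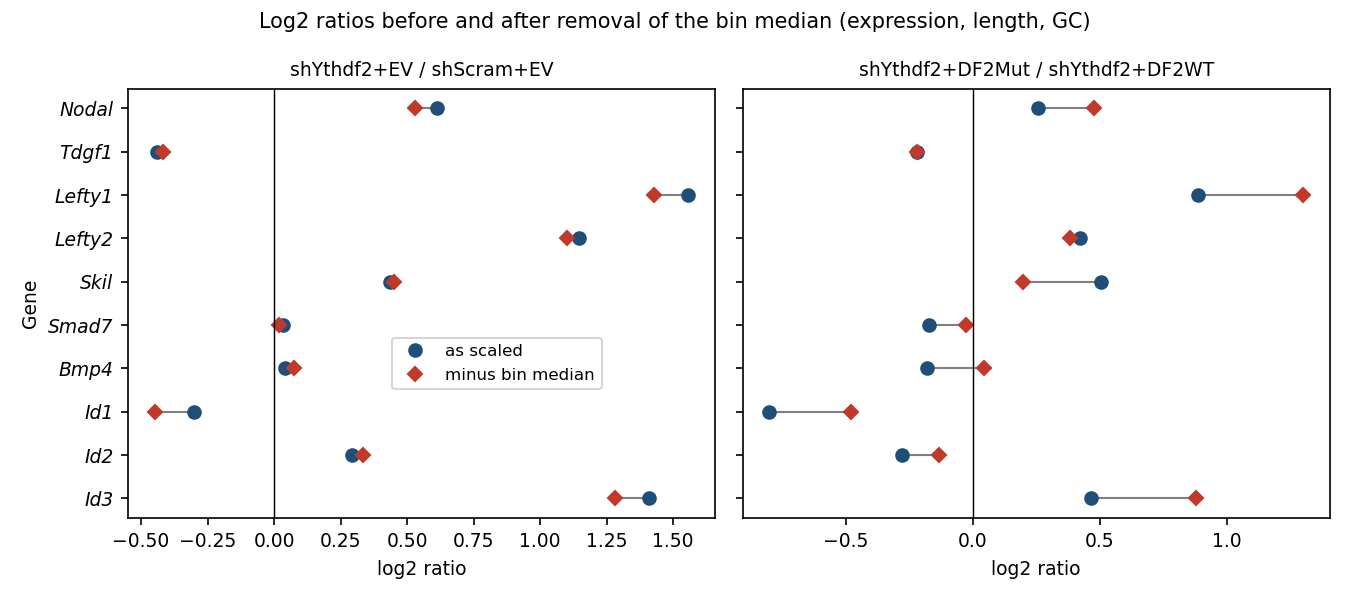
Log2 ratio of each gene (horizontal axis) as scaled (circles) and after the median of genes in the same bins of expression, exon length and GC content was subtracted (diamonds), on knockdown (left) and for the mutant against the wild-type construct (right). On the left *Lefty1* moves from 1.56 to 1.43, and on the right it moves from 0.89 to 1.30 and *Id1* from −0.80 to −0.48.

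Knockdown and the comparison of the constructs share no library, so the direction of a gene in one can be set against the other. Of the 10 members, 5 were higher in both (*Nodal*, *Lefty1*, *Lefty2*, *Id3* and *Skil*) and 2 were lower in both (*Tdgf1* and *Id1*). Among all genes tested, 30.5% were higher in both and 31.7% lower in both. All 4 members that were at least 1.5-fold higher on knockdown were also higher with the mutant than with the wild-type construct, against 1775 of 2570 genes tested (69.1%). These counts describe the 10 members, which were chosen with earlier results of these data known, and were given no test.

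**Figure D4:**
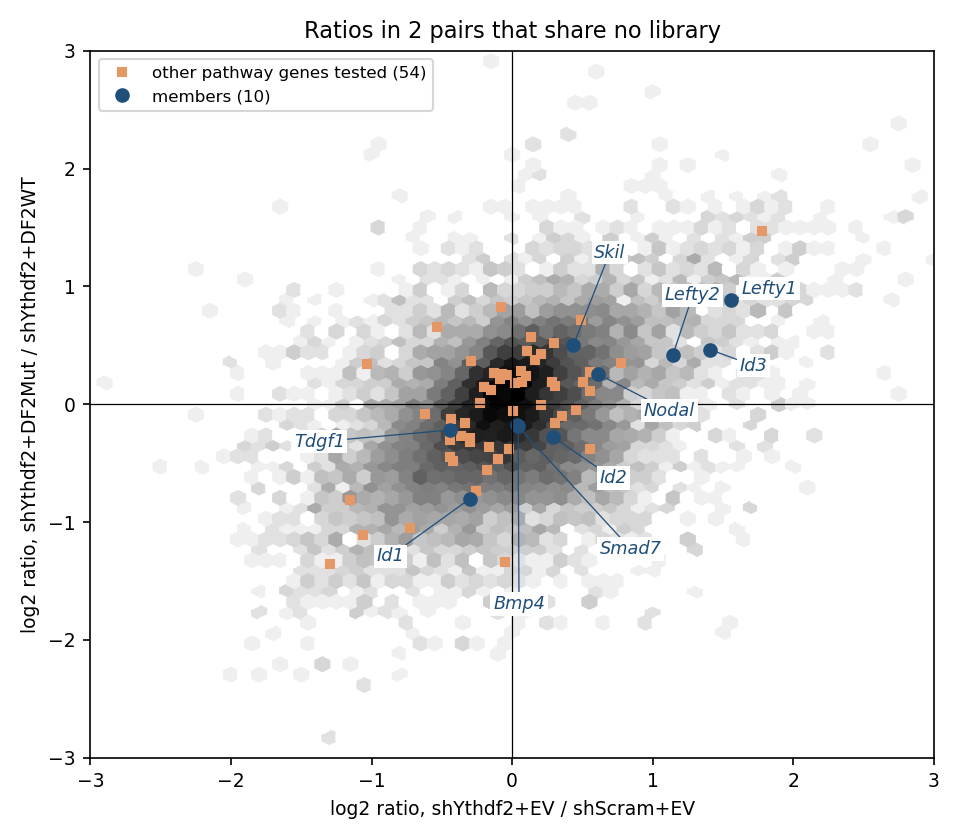
Log2 ratio on knockdown (horizontal axis) and of the mutant against the wild-type construct (vertical axis) for the 10 members (circles), the 54 other pathway genes tested (squares) and all genes tested (gray hexagons, darker for more genes on a log scale), with *Bmp2* and other genes past a log2 ratio of 3 outside the axes. *Lefty1*, *Id3*, *Lefty2*, *Nodal* and *Skil* lie in the upper right, and *Tdgf1* and *Id1* in the lower left.

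Of 66 other genes in lists of the Nodal and BMP pathways, 54 had enough reads to be tested. On knockdown 2 were higher and 4 lower by a factor of 2 or more, against 7.1% and 5.7% of all genes tested. With the wild-type construct 2 were higher and 2 lower, against 5.15% and 5.58% of all genes tested. With the mutant construct the numbers were 0 and 1, against 2.65% and 3.38%. With the mutant against the wild-type construct they were 1 and 4, against 5.4% and 6.21%. *T*, *Gdf1*, *Cer1* and *Bmp5*, named after their values were seen, had no read in any library. *Cer1* encodes an antagonist of Nodal and BMP, and *T* (brachyury) marks mesoderm.

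On the Nodal side, *Fst*, which encodes follistatin, an extracellular inhibitor of activins, had 59, 231, 70 and 188 reads in the scrambled, knockdown, wild-type and mutant libraries, the order used below. It was 3.42-fold higher on knockdown (log2 ratio 1.77, 1.19 to 2.42), at 33.3% of that level with the wild-type construct (−1.59, −2.18 to −1.04) and at 92.0% with the mutant (−0.12, −0.53 to 0.28). Like the LEFTY genes it was higher in the knockdown and mutant libraries than in the others. Its interval for the wild-type against the scrambled library included 0 (0.19, −0.56 to 0.95). With so few reads, that interval also included the ratios of *Lefty1* and *Lefty2*. *Gdf3*, a ligand related to Nodal and the list's most abundant after *Nodal*, had 2399, 4008, 2793 and 3260 reads, with a log2 ratio of 0.55 (0.45 to 0.66) on knockdown, against −0.39 (−0.49 to −0.29) with wild-type YTHDF2. The activin receptor gene *Acvr1b* had 2226, 2053, 2368 and 1835 reads, and was at 81.1% of the scrambled level on knockdown (−0.30, −0.43 to −0.18) and 1.26-fold higher with the wild-type construct (0.33, 0.21 to 0.46). The most abundant ligand genes were thus higher in the knockdown library, and the most abundant genes of the receptor list, *Tdgf1* and *Acvr1b*, were lower. Of the 6 genes of the receptor list tested, 4 were lower and 2 higher on knockdown. The higher ones were *Acvr2a* (log2 ratio 0.49, 0.26 to 0.72) and *Tgfbr1* (0.16, 0.01 to 0.32), both named after their values were seen. *Ski*, a co-repressor related to *Skil*, had a log2 ratio of 0.10 (0.02 to 0.18) and *Tgif1*, another SMAD co-repressor, of 0.02 (−0.06 to 0.10) on knockdown. *Inhbb*, which encodes an activin subunit and was chosen after its values were seen, had the same order of libraries as *Nodal*. It had 1810, 3020, 2386 and 2495 reads, with a log2 ratio of 0.55 (0.43 to 0.67) on knockdown. The mesendoderm targets *Gsc* and *Mixl1*, also chosen after their values were seen, had at most 22 reads in any library.

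On the BMP side, the low ligand genes *Bmp6* and *Bmp8b* were at 48.9% and 45.0% of the scrambled level on knockdown, with 67 and 37 reads for *Bmp6* (log2 ratio −1.03, −1.95 to −0.18) and 112 and 57 for *Bmp8b* (−1.15, −1.86 to −0.49). *Bmp7* had 345, 293, 343 and 238 reads, with a log2 ratio of −0.42 (−0.75 to −0.10) on knockdown. *Bmp2*, named after its values were seen, had no read in the scrambled library and 26, 10 and 10 in the others. With the scrambled library set at the floor of 3 reads, this was 7.62-fold higher on knockdown. The lower limit of its counting interval was a log2 ratio of 1.42. The ligands therefore went in both directions, and *Bmp4*, the most abundant of them, was level.

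Among receptors, *Acvrl1* had 200, 109, 270 and 121 reads, and so was at 48.0% of the scrambled level on knockdown (log2 ratio −1.06, −1.57 to −0.57), 2.70-fold higher with the wild-type construct (1.43, 0.97 to 1.92) and at 46.5% with the mutant against the wild-type construct (−1.11, −1.57 to −0.66). In these comparisons it went in the direction of *Tdgf1* and *Id1*, with larger sizes. Against the knockdown library, the mutant library had a log2 ratio of 0.33 (−0.23 to 0.88) for *Acvrl1*, unlike *Id1*, which was lower. *Bmpr1a*, the most abundant BMP receptor gene, had 2444, 3423, 2489 and 3450 reads, with a log2 ratio of 0.30 (0.19 to 0.41) on knockdown and −0.33 (−0.44 to −0.23) with wild-type YTHDF2, the opposite pattern. *Bmpr2* had a log2 ratio of −0.13 (−0.27 to 0.01) on knockdown. The receptor-activated *Smad1* (0.10, −0.08 to 0.28) and *Smad5* (−0.23, −0.36 to −0.11) had small ratios on knockdown, as did the BMP modulators *Twsg1* (0.06, −0.04 to 0.17) and *Smurf1* (0.01, −0.12 to 0.14).

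Among other BMP targets, *Dusp9* and *Hand1* were lower on knockdown, as *Id1* was. *Dusp9*, a phosphatase gene that BMP signaling induces in ESCs, had 6418, 5363, 6572 and 4668 reads, with a log2 ratio of −0.45 (−0.52 to −0.37) on knockdown. The wild-type library stood 0.42 (0.35 to 0.49) above the knockdown library on the log2 scale, and the mutant library had a log2 ratio of −0.44 (−0.52 to −0.37) to the wild-type library. Against the knockdown library the mutant library was level for *Dusp9* (−0.02, −0.10 to 0.06), unlike *Id1*. *Hand1* had 89, 61, 99 and 46 reads and was at 48.3% with the mutant against the wild-type construct (−1.05, −1.84 to −0.32), with a log2 ratio of −0.23 (−1.08 to 0.60) to the knockdown library. *Chrd*, which encodes the BMP antagonist chordin, had 125, 137, 173 and 66 reads, and was also lowest with the mutant construct, at 39.7% of the level with the wild-type construct (−1.33, −1.97 to −0.75). Of the 11 BMP target genes tested, members included, 1 was past 2-fold on knockdown (*Id3*, higher), and their median log2 ratio was 0.03. Of the 11, 6 were higher and 5 lower on knockdown, and the higher ones included *Msx2* (0.50, 0.01 to 1.01) and *Bambi* (0.35, 0.00 to 0.71), both named after their values were seen. The E-protein genes *Tcf3* and *Tcf12*, whose products ID proteins bind, had log2 ratios of −0.02 (−0.11 to 0.06) and −0.08 (−0.23 to 0.07) on knockdown. With the mutant against the wild-type construct they differed in opposite directions, *Tcf3* at −0.38 (−0.47 to −0.29) and *Tcf12* at 0.83 (0.67 to 0.98).

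The profile of *Nodal* over the libraries was shared with other genes. Of the 10808 genes whose mean count reached 200, 415 had a root mean square difference to *Nodal* within 0.1 on the log2 scale. The nearest were *Zfp42* (0.0185), which encodes the pluripotency marker REX1, *Ncoa5* (0.0196) and *Zfp623* (0.0199). *Zfp42* had 13918, 23750, 16602 and 19220 reads. The profile of *Id1* was shared with fewer genes, with 107 within 0.1, and the nearest were *Isoc2a* (0.0167), *3110040N11Rik* (0.0316) and the ribosomal pseudogene *Rps7-ps3* (0.0356). These likenesses rest on 4 libraries.

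Several members share sequence with other genes, which bears on their counts because reads that aligned to several places were left out. Of all 50-base windows of the transcript, 17.9% in *Lefty1* and 11.6% in *Lefty2* occurred in another gene, mainly in each other, and 12.5% in *Tdgf1* occurred in its pseudogene *Tdgf1-ps1*. *Tdgf1-ps1* had 4574, 3763, 4186 and 3750 reads, with a log2 ratio of −0.47 (−0.56 to −0.38) on knockdown, like that of *Tdgf1*, so reads of the 2 cannot be fully told apart. *Bmp4* shared 2.48% of its windows and *Id2* 0.417%, and *Nodal*, *Id1*, *Id3*, *Smad7* and *Skil* shared none. Counting took no account of strand, and antisense genes overlap exons of *Lefty1* by 84 bases, of *Bmp4* by 84 and of *Smad7* by 1401. The reads assigned to these antisense genes numbered at most 12 in any library.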

How the data were processed

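The deposited values were read counts per gene, which the authors made with featureCounts 2.0.3 on the mm39 RefSeq annotation per the file headers, at exons, unstranded and without reads that aligned to several places. The paired-end option was set without counting pairs, so reads were counted. The submitters' processing notes name fastp 0.19.4, HISAT2 2.2.1, DESeq2 1.40.2 and mm10, and which build was aligned to is therefore uncertain. The deposited exon lengths gave FPKM. The methods of the study describe replicates, while the labels give 1 library per group, and libraries were grouped by title.

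Counts were scaled with TMM factors (edgeR 4.0.16 in R 4.3.3) of 0.976, 1.01, 1.01 and 1.01 for the scrambled, knockdown, wild-type and mutant libraries, from the 18586 genes tested, whose mean count was 10 or more. Log2 ratios used a prior count of 0.5, and a 2-fold difference was the main threshold. Intervals are 95% Clopper-Pearson (ratios) or Poisson (levels) on read pairs, taken as reads divided by 2. Amplified reads are not independent molecules, so intervals and floors cover counting error only and compare libraries, not conditions. The computations, in Python 3.11.15, were tested on simulated data. Promoters came from RefSeq and transcripts from GENCODE vM21, both on GRCm38.p6, which gave a GC content for 90.0% of genes tested and all 10 members, and positions of both builds were kept apart.

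The members, gene lists and markers were chosen with earlier results of these data known. The genes named are the 10 members, *Ythdf2*, list genes averaging 50 or more reads that were past 2-fold in any comparison, the 2 genes of each list with the highest mean FPKM, and the 3 genes nearest in profile to *Nodal* and to *Id1* averaging 200 or more reads. Other genes were named after their values were seen, apart from the marker genes *Pou5f1*, *Sox2* and *Nanog*, which were named to describe the cells. The alternatives were DESeq2 1.42.0 size factors, total counts with and without mitochondrial genes, upper-quartile scaling, a prior count of 5, a 1.5-fold threshold, a mean count of at least 1 or 50, a required interval that excludes 0, and subtraction of the chromosome median or of the median of bins of expression, exon length and GC content.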

Additional observations from a re-analysis of the deposited data

Results flagged for a closer look

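*Id1* had a log2 ratio of 0.37 in the wild-type library and −0.43 in the mutant library, each against the knockdown library. It is given here because it was higher in one and lower in the other with counting intervals that excluded 0 in both. There was 1 library per group, both comparisons share the knockdown library, and the difference was not tested. After subtraction of the median of genes in the same bins of expression, exon length and GC content, the values were 0.29 and −0.18.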

How the results depend on the processing

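In all, 52 results were recomputed under the alternatives, which gave 396 values. Of these, 376 moved by less than the counting interval or, for counts of members, by less than 1.5 times, 20 moved by more, and none of the values that had differed from 0 by more than its interval turned its direction. With a threshold of 1.5-fold, the members lower with the wild-type construct numbered 2 in place of 0, and for the mutant against the wild-type construct 1 member was higher and 1 lower in place of 0. With the median of bins of expression, exon length and GC content subtracted, 1 member, *Lefty1*, was at least 2-fold higher with the mutant than with the wild-type construct, in place of 0. The cause was not tested. On knockdown, the number of members at least 2-fold higher was 3 under every alternative except the 1.5-fold threshold, where it was 4. No paired analysis was possible because each group had 1 library, and for the same reason no replicate could be left out. Depth limits *Id2*, whose 58 to 81 reads per library leave differences of the size seen in *Nodal* within its counting interval.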
